A study of Mus musculus with 10 samples.

Results

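Neurotrophins and their receptors were described in microglia, the resident macrophages of the brain, and in whole brain tissue. The 6 genes are the ligand genes Bdnf, Ntf3 and Ntf5 and the receptor genes Ntrk2, Ntrk3 and Ngfr, taken by symbol from a table of 56748 genes, in which each symbol stood in 1 row. RNA-seq gave read counts for 5 libraries of cells sorted from mouse brain by the surface protein CD11b, which myeloid cells carry (400000 cells each, the microglia), and for 5 libraries of unsorted hemi brains, the bulk brain. Both groups are from young C57BL/6 male mice, with no treatment or engineered allele named. Separate animals within a group are not named in the labels either, and the p-values therefore rest on a spread between libraries that may be technical.

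Neurotrophins are small secreted proteins that support the survival, growth and synaptic plasticity of neurons. They are made as precursors, cut by furin-like convertases, and bind receptor tyrosine kinases of the Trk family: BDNF and neurotrophin 5 (also called NT-4) bind TrkB, the product of Ntrk2, and neurotrophin 3 mainly binds TrkC, the product of Ntrk3. The low-affinity receptor p75, the product of Ngfr, binds all neurotrophins and, together with sortilin, their precursors. In brain, BDNF is mainly a neuronal product, TrkB is made by neurons and, in a truncated form, by astrocytes, and microglia have been discussed as a further source of BDNF.

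Libraries held 25087489 to 28514509 counts in microglia and 25845049 to 34709215 in bulk brain. The upper limit behind a count of 0, which is 3 counts, was 0.116 to 0.125 CPM (read counts scaled to library size and composition) in a microglia library and 0.0820 to 0.109 CPM in a bulk brain library. The sort matched its label. All 12 microglia markers were higher in microglia, where their summed level was 35470 to 36840 CPM, against 255.6 to 306.7 CPM in bulk brain. Of 12 markers of border macrophages and blood leukocytes, 9 could be tested and all 9 were higher in microglia (496.5 to 643 CPM summed, against 9.16 to 12.7 CPM). All 12 neuron markers were lower, with 8.40 to 15.2 CPM summed in microglia and 7086 to 7429 CPM in bulk brain, and none was at 0. Also lower were all 12 astrocyte markers (135.8 to 175 CPM against 4593 to 5784 CPM, none at 0), all 12 oligodendrocyte markers (144.4 to 246.4 CPM against 5956 to 7956 CPM, with Gjb1 at 0 counts in microglia), all 8 markers of oligodendrocyte precursors (1.85 to 3.95 CPM against 280.8 to 309.2 CPM) and the 10 of 11 mural and fibroblast markers that could be tested (9.66 to 20.8 CPM against 278.5 to 321.5 CPM). Of 10 endothelial markers 9 were lower and 1, Pecam1, was higher (77.1 to 108.8 CPM summed in microglia, against 297.1 to 378.6 CPM in bulk brain).

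None of the 6 genes was higher in microglia, and all were at or near the detection limit there except Ntrk2 and Ngfr. In microglia replicates 1 and 5, Ngfr was also at or below that limit. Across the 18969 genes tested, 43.9% were lower in microglia and 37.2% higher (edgeR quasi-likelihood test, Benjamini-Hochberg adjusted p under 0.05). Of the 6 genes, 5 could be tested and all 5 were lower, without overlap between the groups, as were 40.4% of all genes tested. Only Ntrk2 would have passed the low-count filter on its microglia libraries, and Bdnf, Ntf3, Ntrk3 and Ngfr entered the test through their bulk brain counts, which made a difference between the groups a condition of being tested. Bulk brain mixes all cell types, in which fewer cells of a type and less RNA per cell cannot be told apart. Values of each gene follow, by role.

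**Figure D1:**
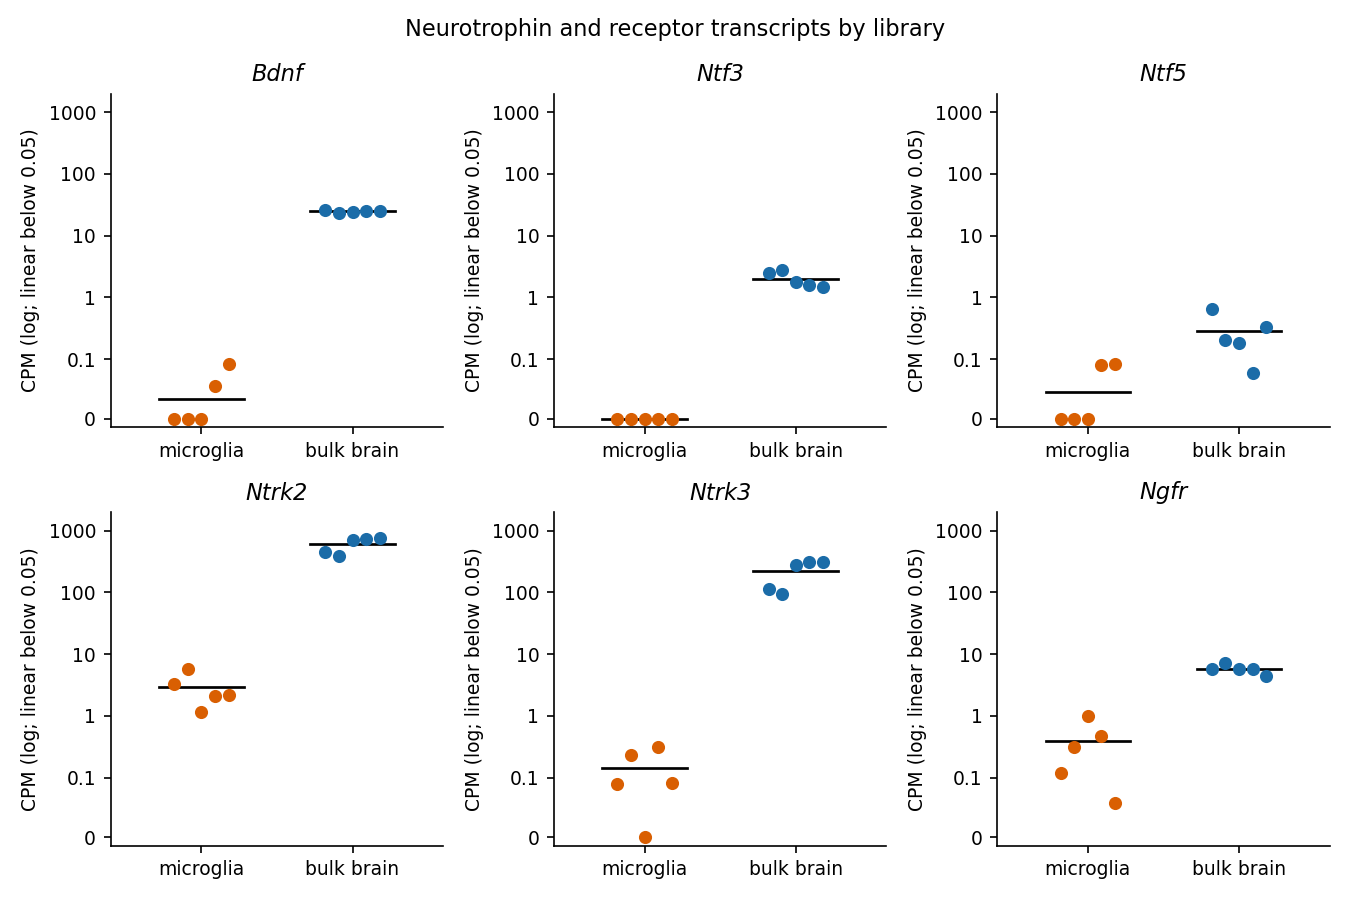
CPM of each gene (vertical axis, logarithmic above 0.05 CPM and linear below it) in the 5 microglia libraries (orange) and the 5 bulk brain libraries (blue), with points in the order of the replicate numbers and a black line at the group mean. Only Ntf5 has groups that overlap, and Ntf3 lies at 0 in all microglia libraries.

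Bdnf encodes brain-derived neurotrophic factor (ENSMUSG00000048482, chromosome 2, 109505045 to 109557352, plus strand, GRCm39). It had 0, 0, 0, 1 and 2 counts in microglia replicates 1 to 5, against 963, 800, 666, 846 and 903 counts in bulk brain replicates 1 to 5. The groups lie far apart, and 3 of 5 microglia libraries held no Bdnf read. The mean was 0.0246 ± 0.0370 CPM in microglia, against 24.7 ± 1.20 CPM in bulk brain (SD, n = 5 each), a log2 difference of -9.78 ± 0.38 (SE; edgeR adjusted p = 4.3e-10). From summed counts, the bulk brain level was 1040 times the microglial one, with a 95% counting interval of 355.5 to 5044. Without microglia replicate 5, which held 2 of the 3 counts, the log2 difference was -10.78. Bulk brain libraries differed little in Bdnf, from 23.1 to 26.3 CPM.

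Bdnf is transcribed from several alternative promoters, which gene-level counts cannot tell apart. The RefSeq promoter table used here holds 7 windows for it (GRCm38.p6, a build other than that of the counts). The window below, from 250 bases before a start to 50 after it, is shown because it is the one among the 11 windows of these genes that holds the CGTCA core of the cAMP response element, the site through which the factor CREB acts. The windows of Ntrk2 and Ngfr, the receptors with the most reads in microglia, are shown beside it. Capitals mark CGTCA or GGGCGG, the core of a GC box, on either strand, and these matches do not overlap each other.
Bdnf, chr2:109692186-109692485, plus strand: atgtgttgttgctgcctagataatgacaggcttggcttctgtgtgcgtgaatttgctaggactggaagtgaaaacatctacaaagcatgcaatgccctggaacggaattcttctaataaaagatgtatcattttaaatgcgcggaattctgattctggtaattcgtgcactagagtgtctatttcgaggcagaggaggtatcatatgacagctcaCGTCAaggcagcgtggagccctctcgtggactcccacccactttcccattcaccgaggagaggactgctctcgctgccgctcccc
Ntrk2, chr13:58806319-58806618, plus strand: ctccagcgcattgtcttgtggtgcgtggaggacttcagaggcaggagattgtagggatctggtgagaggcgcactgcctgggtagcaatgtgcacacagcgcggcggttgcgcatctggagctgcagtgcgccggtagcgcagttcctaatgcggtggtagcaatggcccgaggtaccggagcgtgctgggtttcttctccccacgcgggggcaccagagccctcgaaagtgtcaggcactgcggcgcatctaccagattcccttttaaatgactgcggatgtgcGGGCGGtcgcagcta
Ngfr, chr11:95587649-95587948, minus strand: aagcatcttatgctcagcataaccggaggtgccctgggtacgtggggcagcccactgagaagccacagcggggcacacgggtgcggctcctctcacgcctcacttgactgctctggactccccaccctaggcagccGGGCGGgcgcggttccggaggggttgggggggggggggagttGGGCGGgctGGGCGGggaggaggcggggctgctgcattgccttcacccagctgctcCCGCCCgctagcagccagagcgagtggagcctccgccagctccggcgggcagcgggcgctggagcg
The CGTCA match of Bdnf begins 35 bases before the listed start. CGTCA or its reverse complement TGACG stood in 20.8% of all 32851 RefSeq windows, so that 1 of 11 is not more than the windows of other genes hold. GGGCGG or CCGCCC stood in 6 of the 11 windows, with 4 matches in Ngfr and 1 in Ntrk2, and in 35.7% of all windows. GAGGAAGT, bound by the myeloid factor PU.1, or its reverse complement ACTTCCTC stood in 0 of the 11 windows and in 3.20% of all windows. Ntf3 had 2 windows, each with a GC box. No window was listed under the symbols Ntf5 and Ntrk3.

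Ntf3 encodes neurotrophin 3 (ENSMUSG00000049107, chromosome 6, 126078375 to 126143873, minus strand). It had 0 counts in all 5 microglia libraries, against 90, 98, 48, 53 and 53 counts in bulk brain replicates 1 to 5. At a floor of 3 counts over the microglia group it was at least 85.1-fold lower (edgeR adjusted p = 6.1e-06). Bulk brain averaged 2.01 ± 0.599 CPM (SD, n = 5), and its replicates 1 and 2 were above replicates 3 to 5.

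Ntf5 encodes neurotrophin 5 (ENSMUSG00000074121, chromosome 7, 45063119 to 45066603, plus strand), and was the scarcest of the 6 in tissue. It had 0, 0, 0, 2 and 2 counts in microglia replicates 1 to 5, against 24, 7, 5, 2 and 12 counts in bulk brain replicates 1 to 5. The groups overlap, since bulk brain replicate 4 at 0.0593 CPM lay below microglia replicates 4 and 5 at 0.0795 and 0.0833 CPM. Ntf5 was left out of the fit by the low-count filter. Its mean was 0.0326 ± 0.0446 CPM in microglia, against 0.286 ± 0.228 CPM in bulk brain (SD, n = 5 each), and the difference of -0.253 CPM gave p = 0.024 in an exact two-sided permutation test, whose smallest p is 0.0079. Against bulk brain replicates 3 to 5 alone the p was 0.11 (exact permutation test, smallest p 0.036), and without bulk brain replicate 1, which held 24 of the 50 bulk brain counts, the difference was -0.161 CPM (exact permutation p = 0.048).

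Among receptors, Ntrk2, which encodes TrkB (ENSMUSG00000055254, chromosome 13, 58954383 to 59281784, plus strand), had the highest mean level of the 6 genes in both groups. It had 84, 151, 30, 52 and 53 counts in microglia replicates 1 to 5, against 16373, 13706, 19740, 25117 and 27622 counts in bulk brain replicates 1 to 5. Every microglia library held Ntrk2 reads, and every one lay far below bulk brain. The mean was 2.92 ± 1.81 CPM in microglia, against 612.5 ± 176.2 CPM in bulk brain (SD, n = 5 each), a log2 difference of -7.71 ± 0.46 (SE; edgeR adjusted p = 1.8e-08). Microglia replicate 2, at 5.85 CPM, also had the highest summed levels of astrocyte, oligodendrocyte, oligodendrocyte precursor and mural markers among microglia libraries (175, 246.4, 3.95 and 20.8 CPM), but not of neuron markers (13.9 CPM, with 15.2 CPM in replicate 5, whose Ntrk2 level was 2.21 CPM) or of endothelial markers (98.4 CPM, with 108.8 CPM in replicate 1). Microglia replicate 3, at 1.16 CPM, had the lowest summed levels of astrocyte, neuron and oligodendrocyte precursor markers (135.8, 8.40 and 1.85 CPM). Its oligodendrocyte, mural and endothelial sums (167.2, 11.9 and 82.3 CPM) were not the lowest, which were 144.4 CPM in replicate 4 and 9.66 and 77.1 CPM in replicate 5. Their part in the Ntrk2 level was not tested.

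Ntrk3 encodes TrkC (ENSMUSG00000059146, chromosome 7, 77825707 to 78387760, minus strand) and had the largest difference of the 5 genes tested in the main fit. It had 2, 6, 0, 8 and 2 counts in microglia replicates 1 to 5, against 4173, 3209, 7737, 10416 and 11314 counts in bulk brain replicates 1 to 5. The mean was 0.143 ± 0.129 CPM in microglia, against 221.4 ± 108.7 CPM in bulk brain (SD, n = 5 each), a log2 difference of -10.56 ± 0.63 (SE; edgeR adjusted p = 1.7e-08). The groups did not overlap. Within bulk brain, replicates 1 and 2 lay below replicates 3 to 5, and the log2 difference was -11.15 against replicates 3 to 5 alone and -9.54 against replicates 1 and 2 alone. Against bulk brain replicates 1 and 2 alone Bdnf had the larger log2 difference, at -9.85. The same held without microglia replicate 5, at -10.78 for Bdnf and -10.41 for Ntrk3. Both Trk genes overlap lncRNA or unclassified genes with few counts. The most counted, Gm9885 on the strand opposite Ntrk3, had 4 counts in microglia and 588 in bulk brain.

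Reads of the 2 Trk receptor genes stood in different proportions in the 2 groups. Ntrk2 made up 86.7% to 100% of the Ntrk2 and Ntrk3 counts in microglia (median 96.4%), against 70.7% to 81.0% in bulk brain (median 71.8%). The groups did not overlap (p = 0.0079 by exact permutation, two-sided, which is the minimum for 5 against 5), in a comparison chosen after the values were seen. Against bulk brain replicates 3 to 5 alone the exact permutation p was 0.036. Summed over libraries, the ratio of Ntrk2 to Ntrk3 counts was 20.6 in microglia (95% counting interval 12.8 to 35.1) and 2.78 in bulk brain (2.75 to 2.82). These intervals leave out the spread between libraries. By library the microglial ratio ran from 6.5 to 42, and replicate 3 had no Ntrk3 count. Ntrk3 had 0 to 8 counts per microglia library and entered the test through its bulk brain counts. Whether the Trk reads in microglia come from other cells in the sort was not tested.

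Ngfr encodes the receptor p75, a member of the TNF receptor family (ENSMUSG00000000120, chromosome 11, 95459644 to 95478561, minus strand). It had 3, 8, 26, 12 and 1 counts in microglia replicates 1 to 5, against 212, 249, 161, 196 and 160 counts in bulk brain replicates 1 to 5. Microglia libraries thus spread from 0.0416 to 1.00 CPM, while bulk brain stayed between 4.40 and 7.18 CPM. The mean was 0.390 ± 0.382 CPM in microglia, against 5.81 ± 0.984 CPM in bulk brain (SD, n = 5 each), a log2 difference of -3.87 ± 0.54 (SE; edgeR adjusted p = 3.7e-05). Without microglia replicate 3, which held 26 of the 50 counts, the log2 difference was -4.57. That library had the lowest summed markers of neurons, astrocytes and oligodendrocyte precursors among the 5 (8.40, 135.8 and 1.85 CPM). Its sums for oligodendrocyte, mural and fibroblast, and endothelial markers (167.2, 11.9 and 82.3 CPM) lay within the range of the other microglia libraries. The part of other cells in its Ngfr reads was not tested.

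Expressed as the share of the bulk brain level left in microglia, the genes were set beside the markers of 6 other cell types, whose ranges overlap, so that a share does not assign a gene to a cell type. Bdnf stood at 0.0997% and Ntrk3 at 0.0644%, above 5 and 3 of 12 neuron markers, whose shares ran from 0.0394% (Syt1) to 1.01% (Celf4) with a median of 0.134%. They were also above 2 and 1 of 8 markers of oligodendrocyte precursors, each above 1 of 12 oligodendrocyte markers (Gjb1, at 0), and below all astrocyte, mural and endothelial markers. Against bulk brain replicates 1 and 2 alone the Ntrk3 share was 0.138%. Ntrk2 stood at 0.477%, above 11 of 12 neuron markers and 7 of 12 astrocyte markers, whose median was 0.414% and whose range was 0.169% (Gjb6) to 25.8% (Slc1a3). It was also above 6 of 12 oligodendrocyte markers (median 0.493%) and 5 of 8 markers of oligodendrocyte precursors (median 0.328%). Ngfr, at 6.72%, was above all 12 neuron markers, 11 of 12 astrocyte markers, 10 of 12 oligodendrocyte markers (0% for Gjb1 to 13.4% for Cnp), all 8 markers of oligodendrocyte precursors (0.0607% for Olig2 to 5.26% for Vcan) and 7 of 11 mural and fibroblast markers (1.43% for Col1a1 to 72.5% for Tagln). It was below all 10 endothelial markers (9.25% for Itm2a to 228.5% for Pecam1). The Ngfr share was 4.08% without microglia replicate 3, below Cspg4 and Vcan among markers of oligodendrocyte precursors. The Bdnf share rests on 3 microglia counts. Without microglia replicate 5 it was 0.0403%, above Syt1 alone among neuron markers and below all 8 markers of oligodendrocyte precursors. Ntf5, at 11.4%, rests on 4 microglia counts, and its share lay between 6.96% without microglia replicate 5 and 16.9% without bulk brain replicate 1. These shares describe the genes, and whether reads in microglia come from other cells in the sort was not tested.

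**Figure D2:**
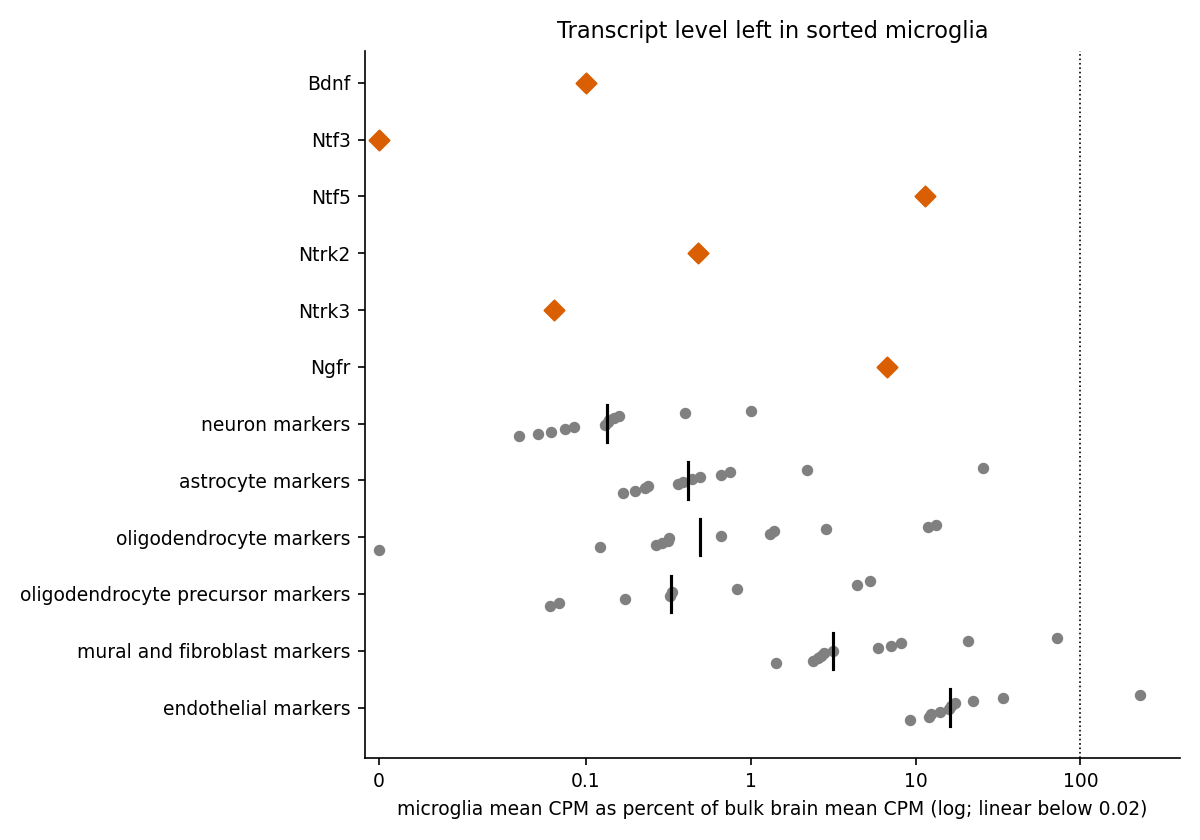
Mean CPM in microglia as a percent of mean CPM in bulk brain (horizontal axis, logarithmic above 0.02% and linear below it) for the 6 genes (orange diamonds) and for the genes of 6 marker lists (grey points, black line at the list's median). With all libraries, Bdnf and Ntrk3 lie within the ranges of neuron and oligodendrocyte precursor markers, and Ngfr lies above both. The position of Bdnf rests on 3 microglia counts.

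Levels of different genes were compared per kilobase of the gene length in the table, which is 30170 bases for Ntrk3, 19292 for Ntrk2, 6217 for Bdnf, 3446 for Ngfr, 2653 for Ntf5 and 1714 for Ntf3. In bulk brain the order was Ntrk2 (31.8 ± 9.13 CPM per kb), Ntrk3 (7.34 ± 3.60), Bdnf (3.97 ± 0.193), Ngfr (1.68 ± 0.285), Ntf3 (1.17 ± 0.350) and Ntf5 (0.108 ± 0.0860; SD, n = 5 libraries each). Ntrk2 lay above Ntrk3 without overlap, as did Bdnf above Ngfr and Ntf3 above Ntf5. The levels of Ntrk3 and Bdnf overlapped, with Ntrk3 above Bdnf in 3 of 5 libraries. These were bulk brain replicates 3 to 5, and in replicates 1 and 2 Ntrk3 was below Bdnf. Those of Ngfr and Ntf3 overlapped too, although Ngfr was above Ntf3 within all 5 libraries. In microglia, Ntrk2 (0.152 ± 0.0938 CPM per kb) and Ngfr (0.113 ± 0.111) overlapped, with Ntrk2 higher in 3 of 5 libraries. The other 4 genes stood at 0.0123 CPM per kb or less, and their order could not be told at this depth.

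Genes that process neurotrophins or act beside their receptors were mostly low in microglia, with a few exceptions. For these and the following genes, levels are means ± SD over the 5 libraries of a group. The list was shortened by 1 gene after its values were seen, so its counts and extremes are a description only. Of the 21 genes left, 18 could be tested, of which 13 were lower and 3 higher, with 2 not past the threshold (median log2 difference -6.04, against -0.14 over all genes tested). Among all genes tested, 43.9% were lower and 37.2% higher. The sortilin-family receptor genes Sorcs1 and Sorcs3 and the TrkB-binding membrane protein gene Slitrk5 were furthest down. Sorcs1 had 1 count over the microglia libraries and averaged 37.0 ± 12.6 CPM in bulk brain (ratio of bulk brain to microglia 4615, 95% counting interval 827.9 to 182297). Slitrk5 and Sorcs3 had 2 counts each in microglia, and bulk brain to microglia ratios of 2975 (823.4 to 24574) and 2512 (695.2 to 20749).

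The 3 genes that rose encode convertases and a relative of p75. Furin, which encodes a convertase that cuts neurotrophin precursors, stood at 107.9 ± 5.63 CPM in microglia, against 33.6 ± 3.47 CPM in bulk brain (a difference of 1.68 ± 0.10 SE on the log2 scale, edgeR adjusted p = 1.2e-08). Pcsk7, which encodes another proprotein convertase, stood at 55.5 ± 3.37 CPM in microglia, against 20.6 ± 1.57 CPM in bulk brain (1.43 ± 0.09 SE, edgeR adjusted p = 4.2e-08). Nradd, which encodes a membrane protein with a death domain related to p75, stood at 8.24 ± 1.63 CPM in microglia, against 1.49 ± 0.542 CPM in bulk brain (2.47 ± 0.28 SE, edgeR adjusted p = 6.2e-06). Sort1, which encodes the sortilin that pairs with p75, stood at 459.7 ± 10.3 CPM in microglia, against 410.8 ± 118.3 CPM in bulk brain and did not pass the threshold (a difference of 0.16 ± 0.18 SE on the log2 scale, edgeR adjusted p = 0.42). It was named after its values were seen.

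Adaptors and signalling genes downstream of the receptors leaned the other way. All 24 could be tested, with 14 higher in microglia, 7 lower, and 3 that missed the threshold (median log2 difference 0.73, against -0.14 over all genes tested). Of all genes tested, 37.2% were higher and 43.9% lower. These genes serve many receptors besides Trk and p75. The Shc adaptor genes, whose products bind activated Trk receptors, divided: Shc1 was higher (87.3 ± 4.65 CPM in microglia, against 11.7 ± 0.425 CPM in bulk brain; a difference of 2.89 ± 0.09 SE on the log2 scale, edgeR adjusted p = 6.0e-11), and Shc2 and Shc3, the neuronal forms, were lower (-9.72 ± 0.41 and -8.01 ± 0.95 SE, edgeR adjusted p = 8.7e-10 and 8.6e-06). Shc4 was lower too (a difference of -4.99 ± 0.61 SE on the log2 scale, edgeR adjusted p = 1.1e-05). Within bulk brain, the Shc3 mean over replicates 3 to 5 was 7.21 times that over replicates 1 and 2. The adaptor gene Sh2b2 (80.1 ± 2.58 CPM in microglia, against 6.31 ± 0.768 CPM in bulk brain) and the kinase gene Ripk2, whose product binds p75 (47.1 ± 3.67 CPM in microglia, against 5.63 ± 0.801 CPM in bulk brain), rose most (log2 differences 3.66 ± 0.11 and 3.07 ± 0.13 SE, edgeR adjusted p = 8.0e-11 and 9.7e-10). Bex3, which encodes a p75-binding protein, was lower (3.68 ± 0.858 CPM in microglia, against 132.7 ± 64.8 CPM in bulk brain; a difference of -5.17 ± 0.34 SE on the log2 scale, edgeR adjusted p = 4.6e-08).

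The list of genes that neurotrophins induce in neurons, which also holds the gene of CREB itself, Creb1, fell on both sides. It had 5 of 12 genes higher and 7 lower in microglia, beside 37.2% higher and 43.9% lower of all genes tested. The list's median log2 difference was -4.11, against -0.14 over all genes tested. The higher ones were the immediate early transcription factor genes Fos, Egr2, Egr1 and Nr4a1, and Creb1. Only the microglia libraries came from sorted cells, so that cell type and cell handling cannot be told apart for these genes. Whether neurotrophins induced them was not tested. Fos stood at 2679 ± 401.4 CPM in microglia, against 26.0 ± 11.8 CPM in bulk brain (a difference of 6.69 ± 0.34 SE on the log2 scale, edgeR adjusted p = 4.7e-09), Egr1 at 1444 ± 275.4 CPM in microglia, against 157.1 ± 14.6 CPM in bulk brain, and Egr2 at 77.4 ± 7.65 CPM in microglia, against 4.12 ± 1.49 CPM in bulk brain. For Egr1 and Egr2 the log2 differences were 3.20 ± 0.15 and 4.23 ± 0.25 SE (edgeR adjusted p = 1.9e-09 and 1.4e-08). Nr4a1 had a log2 difference of 2.95 and Creb1 of 1.77. The lower ones included the neuropeptide genes Npy and Cartpt, with 0 counts in microglia, which were at least 1287-fold and 761-fold lower (against 3 counts in the group), and Vgf, which encodes a secreted neuronal protein (0.0868 ± 0.0811 CPM in microglia, against 243.2 ± 86.6 CPM in bulk brain). Npas4, an early gene of neuronal activity, had a log2 difference of -6.58 and Arc, a postsynaptic early gene, of -5.62.

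**Figure D3:**
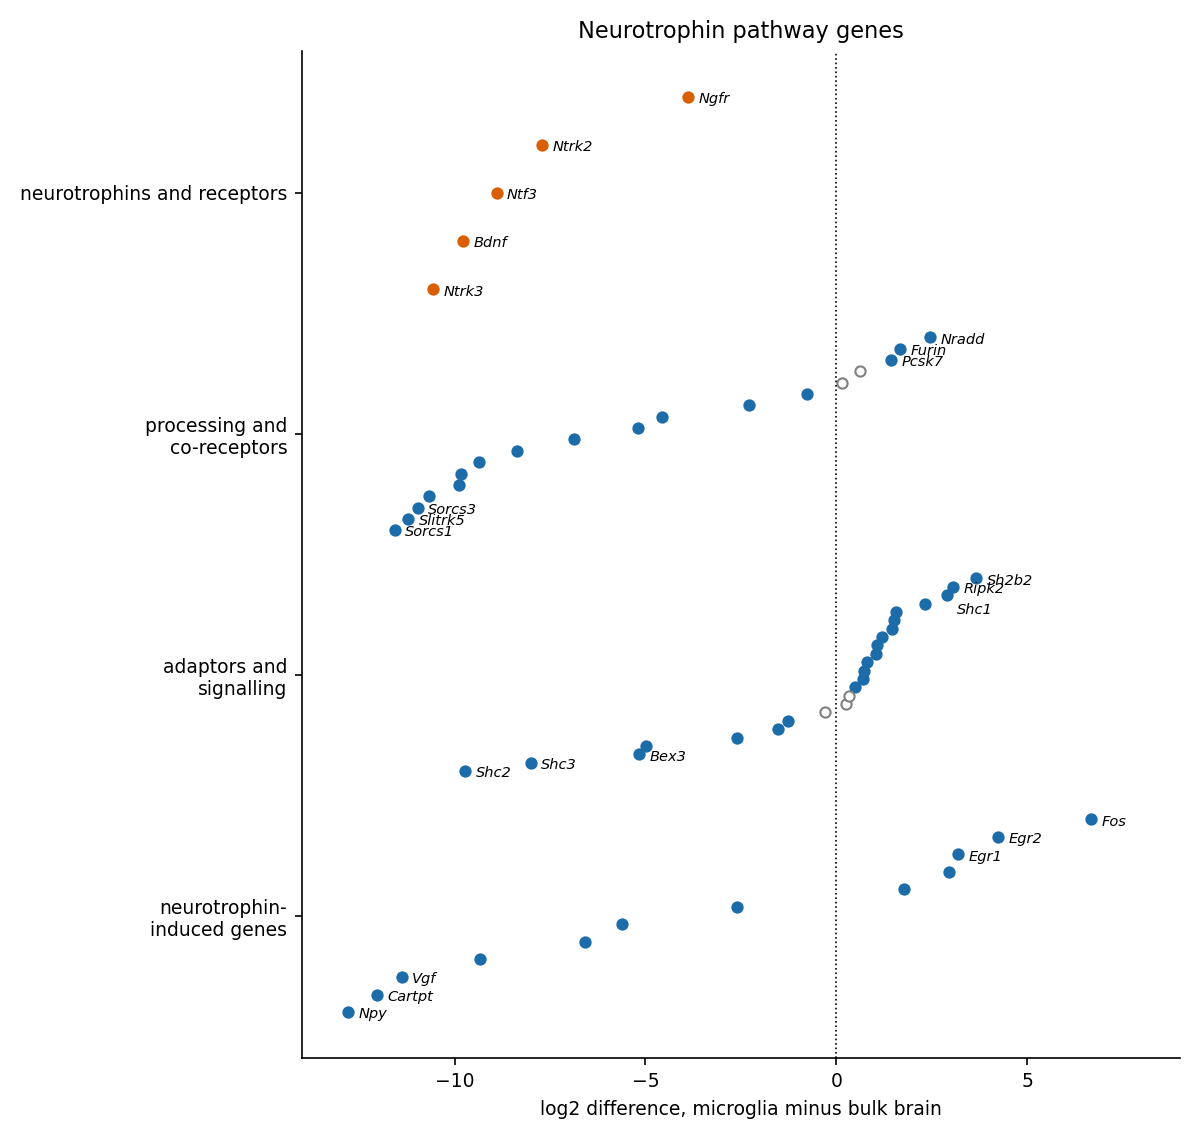
Log2 difference, microglia minus bulk brain, of each tested gene (horizontal axis) in 4 lists, from the neurotrophins and receptors (orange) at the top to neurotrophin-induced genes at the bottom, sorted by value within a list. Filled points passed the adjusted threshold and open points did not. Position to the left of the dotted line means lower in microglia, as for all 5 tested neurotrophin and receptor genes.

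Bulk brain libraries differed among themselves in several of these genes, between replicates 1 and 2 and replicates 3 to 5, a split already known from earlier results of these data. The mean over replicates 3 to 5 was 2.91 times that over replicates 1 and 2 for Ntrk3 and 1.76 times for Ntrk2, with no overlap between the subsets. For Bdnf it was 1.00 times, for Ngfr 0.825, for Ntf3 0.602 and for Ntf5 0.443. Over all 13864 coding genes tested with at least 1 CPM in bulk brain, this ratio followed gene length, with a median of 0.534 for 1517 genes under 2000 bases, 0.970 for 10893 genes of intermediate length and 1.77 for 1454 genes of 10000 bases or more. Ntrk2 and Ntrk3 are in the longest class, where the 10th and 90th percentiles were 1.08 and 2.88, and Ntrk3 lay just above the 90th. Ntf3 is in the shortest class (0.389 and 0.858). Bdnf and Ngfr are in the intermediate class (0.598 and 1.70). Ntf5 has a length in that class too but, at 0.286 CPM in bulk brain, is not among its genes, and its ratio lay below the 10th percentile of the class. Summed neuron markers averaged 7233 CPM in replicates 3 to 5 and 7377 CPM in replicates 1 and 2, and summed astrocyte markers 5762 CPM and 4754 CPM. Sums of the other 4 glial and vascular lists were lower in replicates 3 to 5, at 6002 CPM against 7704 CPM for oligodendrocyte markers, 287.8 CPM against 297.2 CPM for their precursors, 301.3 CPM against 341.6 CPM for endothelial markers and 279.9 CPM against 308.1 CPM for mural and fibroblast markers. The parts of gene length and of cell composition in the split were not tested.

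**Figure D4:**
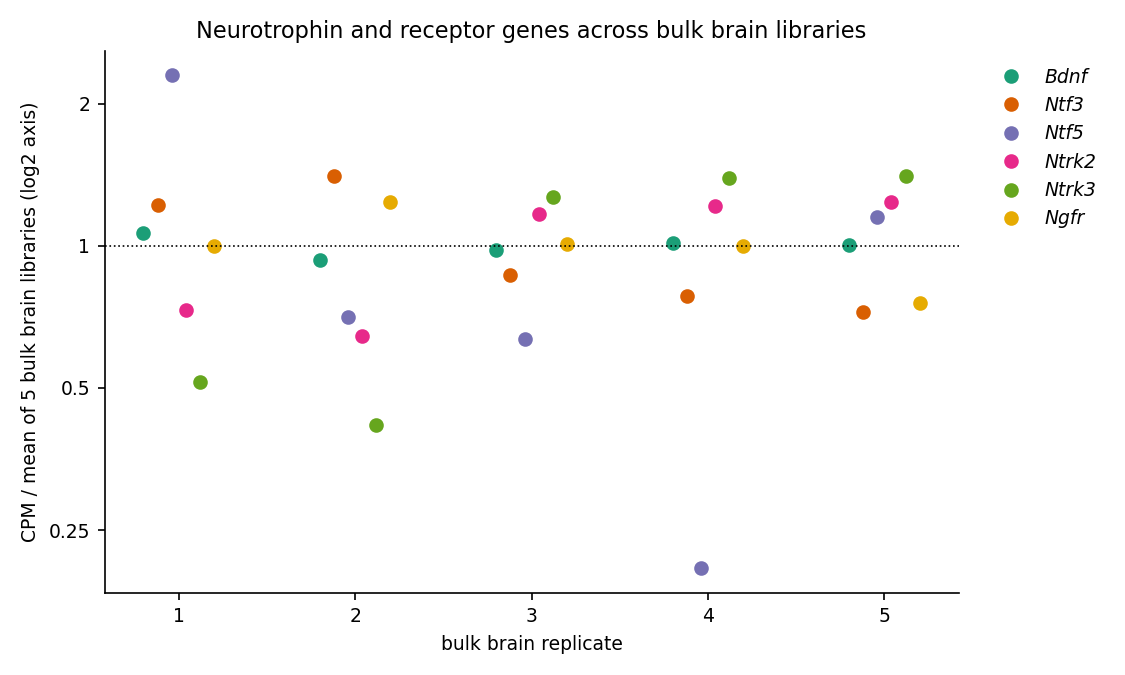
CPM of each of the 6 genes in the 5 bulk brain libraries, divided by its mean over those libraries (vertical axis, log2 scale; horizontal axis, replicate number). Ntrk2 and Ntrk3 lie below 1 in replicates 1 and 2 and above it in replicates 3 to 5, Ntf3 does the opposite, and Bdnf stays near 1.

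The coding genes most like each gene in pattern were found by the root mean square (RMS) difference of centred log2 CPM over the 10 libraries, among 14015 genes. Arhgap44, Olig2 and AW551984 were nearest to Bdnf (0.24, 0.25 and 0.26 RMS on the log2 scale), Pdzph1, Tbx21 and Syt11 to Ntf3 (0.12, 0.14 and 0.16), and Arhgef17, Abat and Igfbp5 to Ntrk2 (0.24, 0.31 and 0.33). Nearest to Ntrk3 were Scn8a, Pde1a and Tnr (0.41, 0.48 and 0.49), and to Ngfr Nfatc4, Pawr and Kcnj14 (0.32, 0.34 and 0.48). A prior count of 2 was added before the logarithm, which compresses differences at few counts. For Ntf3 the microglial values rest on counts of 0, and its 3 neighbours lay at 0, 0 and 32.1 CPM in microglia. Those of Bdnf (0 to 2 counts per library), Ntrk3 (0 to 8) and Ngfr (1 to 26) depend on the prior too. Mean microglial CPM was 0.0246 for Bdnf, and 0.401, 0.0167 and 0.0167 for its 3 neighbours. In the same order, bulk brain means were 24.7, 141.6, 27.4 and 27.7 CPM. A small RMS at such counts therefore does not mean an equal ratio between the groups.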

How the data were processed

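The 10 RNA-seq libraries comprise 5 of microglia and 5 of bulk brain. Libraries were made from bead-selected poly-A RNA with random priming, per the labels' protocols, and all carry the same batch label. The submitters' processing notes name CASAVA, HISAT2 2.2.1, featureCounts 2.0 and GRCm39 (mm39) without their roles. Strand and multi-mapping settings were not given in the sources used here, and reads of overlapping antisense genes may be mixed. The authors deposited raw counts per gene with no normalization, and per the file headers the same table gives symbols, coordinates and gene lengths. Column names tied each of the 10 value columns to its sample, with 0 left over.

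Genes were kept by edgeR's filterByExpr (18969 genes), then fitted over all 10 libraries on group alone, with TMM scaling and the quasi-likelihood test of edgeR 4.0.16 (under R 4.3.3, beside limma 3.58.1). P-values were adjusted by Benjamini-Hochberg over all genes tested, with a threshold of 0.05. CPM use TMM-scaled library totals, log2 differences are microglia minus bulk brain, and the SE is the difference divided by the square root of its F statistic. Counting intervals are exact (95%, conditional on the sum of both groups), floors are 3 counts over the group, and both cover counting error only. Ntf5, which the filter removed, was tested with an exact permutation test. The genes, the 11 further gene lists, the rules for named genes and the tests were chosen with earlier results of these data known. Named were all 6 genes, the 3 largest changes past the threshold in each direction for each of 3 pathway lists at 5 CPM or more, the 3 nearest patterns, and the extremes of marker lists. 1 gene that the rule had named is not reported here and was taken out of the processing list after its values were seen. Other names were chosen after their values were seen. Alternatives were other scalings and filters, DESeq2 1.42.0, limma-voom, a replicate block, subsets of bulk brain and leaving out each library. Levels, intervals and figures were made in Python 3.11.15 with SciPy 1.17.1, matplotlib 3.10.9, pandas 2.3.3 and numpy 2.4.6.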

Additional observations from a re-analysis of the deposited data

How the results depend on the processing

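All 5 tested genes were lower in microglia and past the threshold under all 20 alternatives of the fit, with log2 differences of -10.78 to -9.49 for Bdnf, -9.27 to -6.63 for Ntf3 (whose fitted value depends on the prior count), -8.14 to -7.26 for Ntrk2, -11.15 to -9.54 for Ntrk3 and -4.57 to -3.58 for Ngfr, and a largest adjusted p of 2.9e-03 (Ntf3 with the replicate block). Bdnf, Ntf3, Ntrk3 and Ngfr entered the main test through their bulk brain counts. Their calls under the alternatives describe the same selected difference and are no further support for it. Leaving out 1 library gave 5 lower and 0 higher, and all genes lower numbered 8575 to 9033 and higher 6677 to 7127. With no low-count filter Ntf5 had a log2 difference of -3.17 (edgeR adjusted p = 0.013). The Ntf5 difference was -0.158 CPM against bulk brain replicates 3 to 5 alone (exact permutation p = 0.11) and -0.396 CPM against replicates 1 and 2 alone (exact permutation p = 0.095, the smallest possible there). Against bulk brain replicates 1 and 2 alone the share of Ntrk3 left was 0.138%, and bulk brain levels were 21.8 CPM per kb for Ntrk2, 3.42 for Ntrk3 and 1.54 for Ntf3. With library size alone the bulk brain level of Bdnf was 4.24 CPM per kb. Scaling moved all genes together: their median log2 difference stood at -0.14 under TMM, at -0.33 under plain library size and at -0.31 under size factors from DESeq2. Same-numbered samples of the 2 groups did not deviate together (correlations of -0.0209 to 0.0101). Since bulk brain libraries also differ by their split, these correlations cannot tell whether same-numbered samples share a mouse. With the replicate block Ngfr had a log2 difference of -4.23 (edgeR adjusted p = 3.6e-04) and 5 genes were lower. At 0 to 2 counts per library, Bdnf, Ntf3 and Ntf5 in microglia are at the limit of this depth. Ntrk3, at 0 to 8 counts per microglia library, is near it.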
